A study of Arabidopsis thaliana with 12 samples.

Results

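Seeds of Arabidopsis thaliana that had been kept for 3 h in 5 µM gibberellin were compared with seeds kept for 3 h in water. The comparison uses the 4 arrays of this time, A and B for gibberellin and A and B for water, of the 12 arrays of the series. The other 8 arrays hold the same treatments at 6 h and 9 h, again with 2 arrays in each of 6 groups, and entered the model that estimates the spread. All seeds, treated or not, came from 1 stock in the Ler background; the sources used here give neither its genotype beyond that nor the form of gibberellin. The members are the 13513 probe sets that name exactly 1 gene, of 22746 probe sets other than controls. Of these, 8854 (65.5%) passed a filter on low signals and were tested together with the other kept probe sets, 15766 in all. Their values are log2 of the deposited MAS5 signal, in which every array has a trimmed mean of 100.

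Gibberellin is the hormone that lets an imbibed seed germinate. The soluble receptor GID1 binds it and then holds a DELLA repressor, which the F-box protein SLY1 marks for breakdown. In seeds this pathway is known for releasing wall-loosening enzymes and hydrolases that weaken the covering layers and open the stores, and it works against abscisic acid, the hormone that keeps seeds dormant. The samples were taken at the earliest time of the series, so the comparison asks which functions responded first.

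The labelled tissue was checked with seed genes. Of 11 listed storage protein and seed identity genes, 0 are named alone by a probe set. Genes of late embryogenesis abundant (LEA) proteins, which protect the embryo in the dry seed, were therefore looked at. LEA18 read 3442 on water A, 5472 on water B, 2726 on gibberellin A and 3960 on gibberellin B, and LEA4-5 read 1290, 1678, 1242 and 1634 in the same order. Both were bright on all 4 arrays. Of 7 listed seed coat genes 2 are named alone by a probe set, and 1 passed the filter. Of 5 listed endosperm genes 1 is so named, AOP3 below, and it passed the filter. Of 7 green leaf genes 0 are so named, so their signals could not be looked at. Shares of tissues were therefore not tested. Whole seeds hold embryo, endosperm and seed coat, and in such bulk samples fewer cells of a type and less RNA per cell cannot be told apart.

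The 2 arrays of each group were not alike. The highest signal was 3760 on water A and 3308 on gibberellin A, against 8882 on water B and 6511 on gibberellin B. Among the brightest 1% of probe sets on the B array (158), the median log2 of A over B was −0.63 for water and −0.73 for gibberellin, while over all probe sets it was 0.06 and 0.09. The ratio of the 3' to the 5' actin control was 4.88 and 5.73 on the A arrays and 10.2 and 8.44 on the B arrays. Each letter holds both treatments, so many genes are given with an A pair (gibberellin A minus water A) and a B pair beside the difference of group means. Where no pair is named, a difference, a family median or a count above 0 rests on the group means. Whether A and B are separate seed batches is not stated in the labels, and the p-values reflect a spread between arrays that may be technical only.

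At 3 h, 29 probe sets (0.184%) were higher and 7 (0.0444%) were lower with gibberellin at an adjusted p under 0.05 (limma with Benjamini-Hochberg adjustment over 15766). Of these 36, 15 name 1 gene, 11 higher and 4 lower, and the other 21 name none or several here. At the same threshold 144 (0.913%) were higher and 89 (0.565%) lower at 6 h, and 597 (3.79%) were higher and 581 (3.69%) lower at 9 h. All 15 named genes kept their groups apart, with no overlap of the 4 signals, and so did 14.5% of all tested probe sets on the higher side and 15.9% on the lower side. In 14 of the 15 both letter pairs reached at least 1 on the log2 scale. In 12 of the 15 the A pair was the larger.

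**Figure D1:**
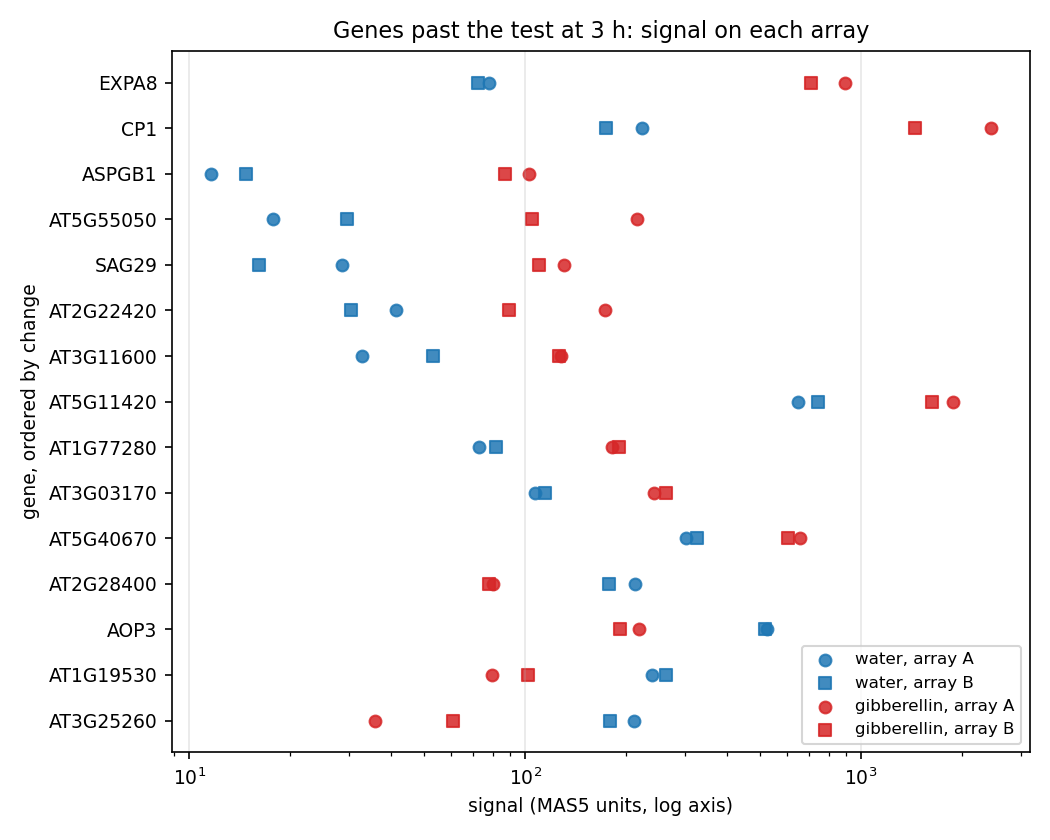
Signal in MAS5 units (log axis) of the 15 genes past the test on each of the 4 arrays at 3 h, with circles for A arrays, squares for B arrays, blue for water and red for gibberellin. In every gene both red points lie on 1 side of both blue points, and EXPA8 and CP1 show the widest gaps.

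Of the 11 rising genes, 4 carry a gene symbol. EXPA8 (AT2G40610) encodes an alpha-expansin, a protein that loosens cell walls. Its signal was 78.1 on water A and 72.2 on water B, against 894 on gibberellin A and 707 on gibberellin B. The groups lay far apart and the arrays of a group close together. The A pair was 3.52 and the B pair 3.29, and the group difference of 3.40 ± 0.27 (SE), or 10.6-fold, had an adjusted p of 0.000306. CP1 (AT4G36880) encodes a cysteine proteinase, an enzyme class that digests seed storage protein. It read 223 and 174 in water and 2432 and 1450 with gibberellin, a rise of 3.25 ± 0.27, or 9.53-fold (adjusted p = 0.000322). Gibberellin A was the brightest array for it although that array has the lowest ceiling. CP1 stood at 4.26 at 6 h and 5.06 at 9 h, and EXPA8 at 3.99 and 3.81.

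ASPGB1 (AT3G16150) encodes an asparaginase, which releases ammonium from the nitrogen store asparagine. Its signal was 11.6 and 14.8 in water, near the floor, and 103 and 87.1 with gibberellin. The difference was 2.85 ± 0.34 (adjusted p = 0.00494), with both water signals below the level used as the filter. The other measured asparaginase, ASPGA1, read 313 and 352 in water and 318 and 320 with gibberellin, with overlapping groups. SAG29 (AT5G13170, SWEET15) encodes a sucrose exporter of the SWEET family. It read 28.5 and 16.1 in water and 130 and 110 with gibberellin, with the B pair (2.77) larger than the A pair (2.20). The rise was 2.48 ± 0.35 (adjusted p = 0.0139). Of 8 kept SWEET genes it was the only one past the test, and SWEET1, with 851 and 670 in water, read 861 and 657 with gibberellin.

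The remaining 7 rising genes carry no gene symbol in the tables used here, and no role is given to them. AT5G55050 differed most between its pairs, with 3.60 for A and 1.83 for B, and read 17.7 and 29.5 in water against 215 and 105 with gibberellin. AT2G22420 read 41.3 and 30.3 against 173 and 89.8, a rise of 1.82 ± 0.30. AT5G11420 was read at 647 and 744 in water and 1872 and 1630 with gibberellin, a rise of 1.33 ± 0.20 (adjusted p = 0.0219). The smallest rise was that of AT5G40670, which went from 300.2 and 325 to 659 and 607 (1.02 ± 0.17, or 2.03-fold, adjusted p = 0.0397). AT3G03170 and AT1G77280 had nearly equal pairs, 1.17 and 1.19 for the first and 1.32 and 1.22 for the second. AT1G77280 was also the only named gene that did not pass at the later times, with 0.89 at 6 h (adjusted p = 0.0827) and 0.65 at 9 h (adjusted p = 0.0992). The other 14 passed in the same direction at 6 h and at 9 h. In limma's test of the change of effect, 0 of 15766 probe sets passed from 3 h to 6 h (373 at an unadjusted p under 0.05) and 2 from 3 h to 9 h (1074 at an unadjusted p under 0.05), neither of them naming a single gene.

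On the falling side were 4 genes. AT3G25260 (NPF4.1) belongs to the NRT1/PTR transporter family. It read 210 and 179 in water and 35.8 and 61.2 with gibberellin, a fall of 2.05 on the log2 scale (SE 0.31, adjusted p = 0.0215), with the A pair at −2.55 and the B pair at −1.55. AOP3 (AT4G03050) encodes a dioxygenase that modifies the side chain of glucosinolates, defence compounds of the cabbage family. It read 525 and 518 in water and 219 and 192 with gibberellin, a change of −1.35 ± 0.20 (adjusted p = 0.0216). AT1G19530 went from 239 and 262 to 79.6 and 102 (−1.47 ± 0.21), and AT2G28400 from 212 and 178 to 80.0 and 77.9 (−1.30 ± 0.22). AT2G28400 and AOP3 stood at −2.98 and −2.74 at 9 h, and AT1G19530 at −1.64 at 6 h and −1.43 at 9 h.

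With the signal ceiling as a block, all 15 genes stayed past the test, with adjusted p between 2.17e-05 for EXPA8 and 0.0257 for AT1G77280. Only EXPA8, CP1 and ASPGB1 stayed past it in all 12 fits that leave out 1 array. AT5G55050 passed in 11, SAG29 and AT1G19530 in 9, AT3G25260 in 8, AT5G11420 and AOP3 in 6, AT2G28400 in 2, AT3G03170, AT2G22420 and AT3G11600 in 1, and AT5G40670 and AT1G77280 in none. The adjusted p rose highest without water B for SAG29 (0.129), AOP3 (0.162), AT1G19530 (0.162), AT3G03170 (0.208), AT5G40670 (0.209) and AT2G22420 (0.298). It rose highest without water A for AT5G55050 (0.0505), AT3G25260 (0.114), AT5G11420 (0.130), AT3G11600 (0.198) and AT2G28400 (0.201), and without gibberellin B for AT1G77280 (0.219). Median centring ended the call of 7 genes, AT5G40670, AT5G11420, AT3G03170, AT3G11600, AT1G19530, AT1G77280 and AT2G28400. Fitting without the intensity trend ended 13 of the 15 (all but EXPA8 and CP1), and fitting the 4 arrays at 3 h alone ended all but EXPA8.

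The threshold fell inside a continuous range. Just inside it lay AT3G11600 (adjusted p = 0.0430) and AT1G77280 (0.0451), and just outside it AT2G32560 (0.0804), AT1G26800 (0.0915), XERICO (0.113) and AOP1 (0.121). An unadjusted p under 0.05 was found for 829 probe sets, and 435 of them name 1 gene. The weaker changes were therefore looked for by the agreement of the pairs rather than by the test. Both pairs reached at least 1 on the log2 scale in the same direction for 184 probe sets (1.17%) on the higher side and 123 (0.78%) on the lower side. Among probe sets of 1 gene these were 96 and 83, and 165 of the 179 had not passed the test.

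The agreement of the pairs went with brightness. Over all 8854 genes they shared a sign in 57.6% and their differences correlated at r = 0.10, given as a description across genes within 4 arrays. Below a mean signal of 32 the correlation was 0.03 and the sign was shared in 50.5%. It was 0.31 from 32 to 100, 0.46 from 100 to 300, 0.55 from 300 to 1000 and 0.49 above, where the sign was shared in 65.9%. Of the 165 genes with both pairs at or past 1 but no call, 132 stayed under a signal of 32 in both groups. The 33 brighter ones divided into 27 higher and 6 lower with gibberellin. The limit applies to the higher of the 2 group means, so a gene can pass it through 1 group alone. AT4G26790 did so, with a mean of 6.53 in water and 32.1 with gibberellin. So did most of the higher genes described below. Their water means were 9.77 for AT1G23040, 12.5 for AT2G32560, 19.8 for AT5G65300 and 20.0 for AT1G78170. They were 21.3 for AT3G15720, 27.2 for scpl44, 27.6 for AOP1 and 28.2 for EXPA9. The division is therefore not read as a result about bright genes.

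**Figure D2:**
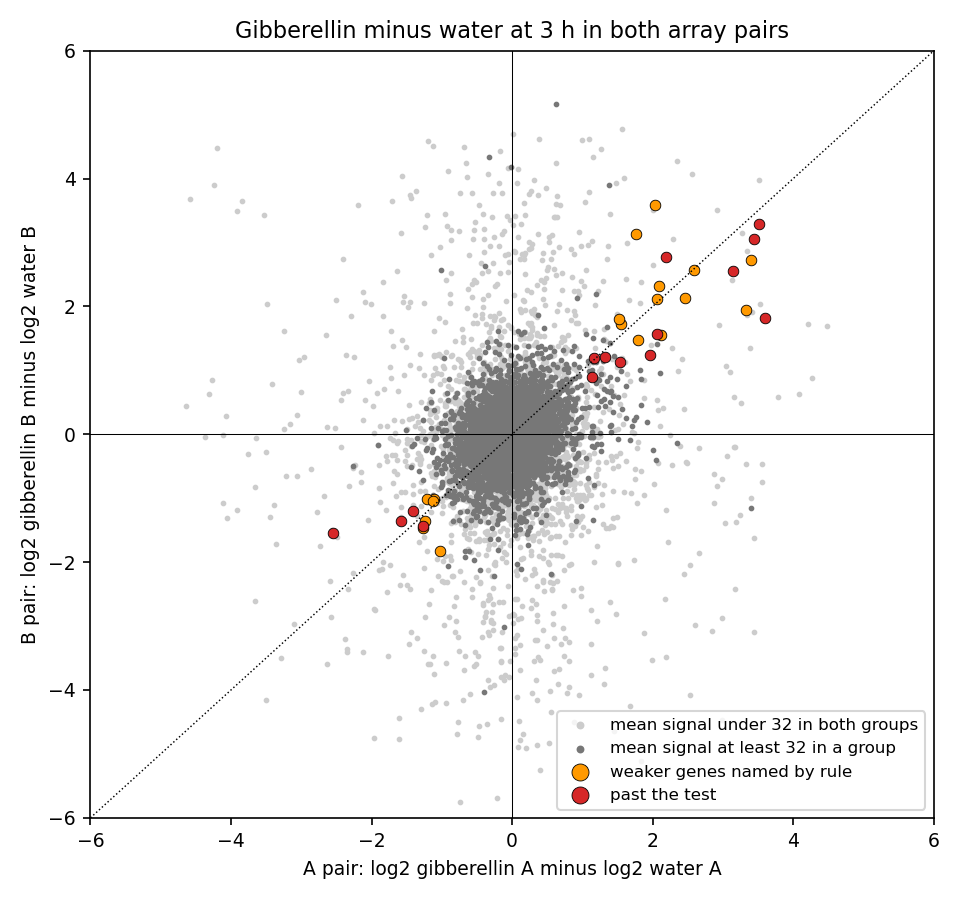
A pair (x axis) against B pair (y axis), each log2 gibberellin minus log2 water at 3 h, for the 8854 tested genes (1 point lies outside the axes). Red points are the 15 genes past the test and orange points the 18 weaker genes named by rule. The rule asks for pairs of 1 sign that both reach 1, so the place of orange points off the axes was fixed by it. The test favours genes whose arrays within a group are alike, which also draws their pairs together. Some points lie well off the dotted line of equal pairs, as AT5G55050 (3.60 and 1.83) and Hsp70-2 (1.76 and 3.14). Dim genes (pale grey) scatter along both axes.

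From these 33, the 12 higher genes with the largest smaller pair and all 6 lower genes are described. In 15 of the 18 the groups did not overlap. Of all tested probe sets 14.5% did not on the higher side and 15.9% on the lower, and choosing by both pairs favours separation. With the signal ceiling as a block 9 of the 18 passed the test, beside 66 of all 15766. At 3 h this block separates the A arrays from the B arrays. Choosing by both pairs therefore favours passing with it, so those 9 and the ceiling-block p-values below are no separate support. Of the 18, 8 passed in the same direction at 6 h and 12 at 9 h. Of all tested probe sets 0.913% were called higher and 0.565% lower at 6 h, and 3.79% and 3.69% at 9 h.

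EXPA9 (AT5G02260), another alpha-expansin, read 46.9 on water A and 257 on gibberellin A, but 9.42 on water B and 41.3 on gibberellin B. Its pairs were close, 2.45 and 2.13, yet the B arrays were dimmer for both treatments, so the groups overlapped, and the adjusted p was 0.811 (0.0754 with the ceiling block). Leaving out 1 array moved the difference of 2.29 to between 0.97 without gibberellin A and 3.61 without gibberellin B. It passed at 6 h (4.02, adjusted p = 0.0458) and at 9 h (4.41, adjusted p = 0.0119). The serine carboxypeptidase-like gene scpl44 (AT1G43780), of a family of proteases and acyltransferases, had the same pattern, with 43.5 and 435 on the A arrays and 10.9 and 42.0 on the B arrays. Its difference was 2.64 ± 0.92 at 3 h (adjusted p = 0.723) and 5.80 at 9 h (adjusted p = 0.00414), and at 3 h it lay between 0.95 and 4.32 when gibberellin A or gibberellin B was left out. AT3G15720 read 31.3 and 11.3 in water and 330 and 74.4 with gibberellin, a difference of 3.06 ± 0.62 (adjusted p = 0.121; 0.0214 with the ceiling block) that reached 5.91 at 9 h.

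AOP1 (AT4G03070), a paralogue of AOP3 in the same gene cluster, went the other way from it. Its signals were 23.22 and 31.997 in water and 97.4 and 138 with gibberellin, with pairs of 2.07 and 2.11. The difference of 2.09 ± 0.42 missed the threshold (adjusted p = 0.121) and passed with the ceiling block (0.0136), and it was 3.20 at 9 h (adjusted p = 0.00149). The glucosinolate transporter GTR2, from the same list of 4 kept genes, read 226 and 145 in water and 404 and 194 with gibberellin, with pairs of 0.84 and 0.43, and GTR1 stood at 0.16. Probe sets of near-identical paralogues can share signal, which was not tested for AOP1 and AOP3.

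Hsp70-2 (AT5G02490), a cytosolic chaperone that helps proteins fold, read 71.0 and 8.04 in water and 241 and 70.8 with gibberellin. Its B pair of 3.14 was larger than its A pair of 1.76 and rests on the dim value of water B, without which the group difference of 2.45 was 0.88. The later differences of 2.70 and 2.41 did not pass. AT2G32560 had 14.03 and 10.99 in water and 84.1 and 64.9 with gibberellin, with nearly equal pairs (2.58 and 2.56), and it passed with the ceiling block (adjusted p = 0.0186). AT1G26800 (1.64 ± 0.32) and AT5G65300 (1.66 ± 0.38) were nominally largest at 3 h, with 0.91 and 1.33 at 9 h, neither past the test at either later time. AT1G68500 (1.84 at 3 h) and AT1G78170 (1.63) stood at 2.50 and 2.78 at 9 h and passed there. The remaining 2, AT4G26790 and AT1G23040, had a dim water B value of 1.39 and 5.18.

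On the lower side, XERICO (AT2G04240) encodes a RING-type protein known to raise abscisic acid levels. It read 1014 and 1131 in water and 468 and 562 with gibberellin, and was 2.09-fold lower, with the 4 signals well apart. The pairs of −1.11 and −1.01 gave a difference of −1.06 ± 0.21 (adjusted p = 0.113; 0.0183 with the ceiling block). At 6 h it was −2.08 and at 9 h −3.11, both past the test. AT1G54120 (118 and 98.2 against 49.2 and 35.5) and AT1G80180 (404 and 762 against 186 and 368) were lower in both pairs and passed at 9 h, and AT4G26130 (−1.11) passed at no time.

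A pair of lower genes had no lower signal at 9 h. SNF7.1 (AT4G29160) encodes a subunit of the complex that sorts membrane proteins into vacuolar vesicles. Its signal was 59.3 and 65.2 in water and 25.2 and 25.5 with gibberellin. The difference of −1.29 ± 0.29 (adjusted p = 0.222) was followed by −0.18 at 6 h and 0.04 at 9 h. OCT1 (AT1G73220), an organic cation and carnitine transporter, read 389 and 279 in water and 191 and 78.6 with gibberellin, a difference of −1.43 ± 0.37 (adjusted p = 0.367; 0.0337 with the ceiling block), with −0.65 at 6 h and 0.51 at 9 h. The test of the change of effect between times did not pass for either gene.

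**Figure D3:**
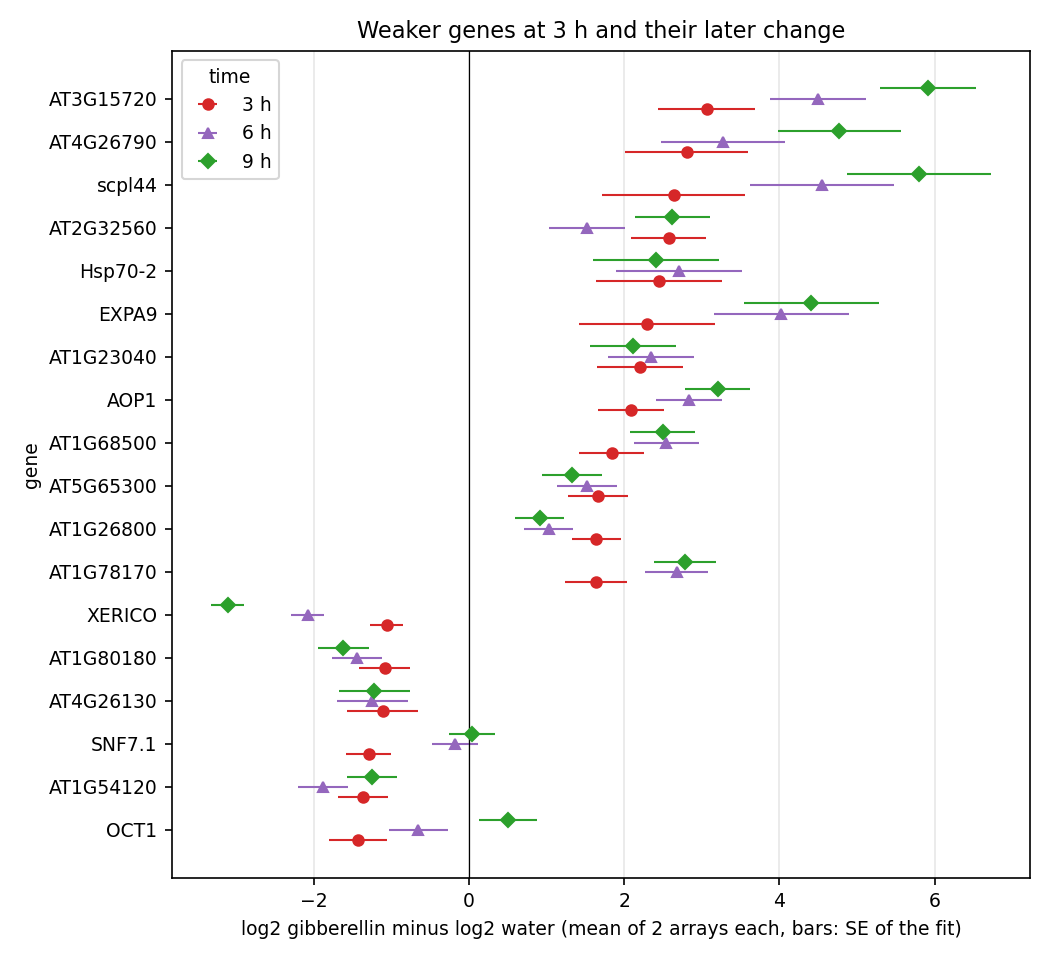
Log2 gibberellin minus log2 water (x axis) of the 18 weaker genes at 3 h (red circles), 6 h (purple triangles) and 9 h (green diamonds), with bars for the SE of the fit on 2 arrays a group. XERICO, scpl44 and AT3G15720 lie farther from 0 at 9 h than at 3 h, and SNF7.1 and OCT1 lie at or above 0 at 9 h.

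The later arrays share none of the 4 arrays used at 3 h, so they show what became of weak changes. Of the 6175 genes with a signal of at least 32 in a group and no call at 3 h, 2403 had pairs of opposite sign, and 1.91% of these were called higher and 1.58% lower at 9 h. When both pairs were higher but the smaller was under 0.25, 5.13% of 1267 genes were called higher at 9 h. The share was 15.8% of 387 genes from 0.25 to 0.5, 43.4% of 113 genes from 0.5 to 1 and 55.6% of 27 genes from 1. On the lower side it was 8.23% of 1398 genes, 23.7% of 447, 30.7% of 127 and 3 of 6 genes. At 6 h the shares were smaller, at 16.8% of the 113 higher and 10.2% of the 127 lower genes with a smaller pair of 0.5 to 1. Among those 113 genes, 1 was called in the opposite direction at 9 h, and among the 127 lower genes 0 were.

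The 9 h calls in that count borrow their spread partly from the 3 h arrays. From a fit of the 8 later arrays alone the shares were 59.3% of the 27, 46.0% of the 113, 15.8% of the 387 and 4.58% of the 1267 higher genes, beside 4.09% of all 15766 probe sets called higher and 4.02% called lower in that fit. For lower genes they were 29.1% of the 127, 25.5% of the 447 and 9.23% of the 1398, while 2.87% and 2.04% of the genes with opposite pairs were called higher and lower. The direction alone was kept at 9 h by 96.3%, 90.3%, 81.1% and 68.6% of the higher genes from the largest to the smallest class. On the lower side it was kept by 66.7% of 6, 81.9% of 127, 86.1% of 447 and 74.9% of 1398 genes, with no such order.

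**Figure D4:**
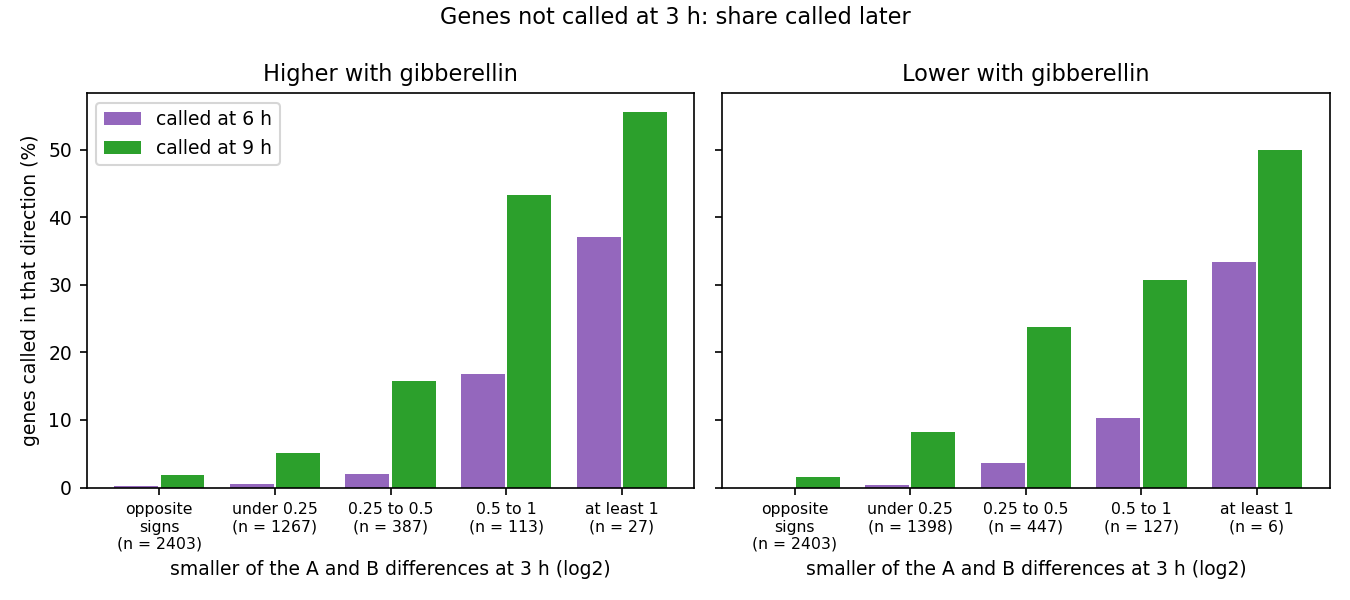
Percent of genes called in the stated direction at 6 h (purple) and 9 h (green), by the smaller of the A and B differences at 3 h, for genes with no call at 3 h and a signal of at least 32 in a group. The share at 9 h runs from 1.91% where the pairs had opposite signs to 55.6% of 27 genes on the higher side.

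Families were then described by gene symbol. Of the tested genes, 1170 have a symbol, and 30 lists with kept members were drawn from them, of which 5 held a gene past the test. Over all 8854 tested genes the median difference was −0.03, with 4133 above 0, and both pairs reached 0.5 in 330 higher and 366 lower genes. These figures stand beside each list in place of a test.

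Among the 10 kept expansins, 1 passed the test (EXPA8) and 5 were above 0, with a median of 0.10. The median A pair was −0.04 and the median B pair 0.64. The 5 above 0 were all alpha-expansins. EXPA15, at 231 and 238 in water and 532 and 366 with gibberellin, had pairs of 1.20 and 0.62 (adjusted p = 0.280) and passed at 9 h (1.62). EXPA4 had pairs of 0.78 and 1.95 on a dim signal, and EXPA20 stood at 0.24. The beta- and like-expansins below 0 (EXPB1, EXPB2, EXPB5, EXLA1 and EXLB1) stayed under a mean signal of 32.

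Xyloglucan endotransglucosylase/hydrolases (XTH) cut and rejoin the wall polymer xyloglucan. Of 6 kept genes, 0 passed (1 at an unadjusted p under 0.05), 4 were above 0 and the median was 0.46. XTH19 (AT4G30290) read 27.0 and 45.2 in water and 116 and 87.4 with gibberellin, a difference of 1.53 ± 0.33 (adjusted p = 0.176), which was 3.32 at 9 h (adjusted p = 0.000241). XTH16, with pairs of 0.74 and 0.38, was at 2.29 at 9 h (adjusted p = 0.00434).

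The RALF-like genes encode small peptides that signal to the wall-sensing receptor kinases of the cell surface. All 6 kept members were above 0, with a median of 0.53, and 0 passed (1 at an unadjusted p under 0.05). Only RALFL34 (AT5G67070) was bright. It read 286 and 246 in water and 506 and 437 with gibberellin, and both pairs were 0.83 (adjusted p = 0.374). It passed at 6 h (1.26, adjusted p = 0.0162) and at 9 h (1.78, adjusted p = 0.00109). The other 5 lay under a mean signal of 32.

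In the protease-related lists the larger differences were limited to a few transcripts. In the serine carboxypeptidase-like list 0 of 12 genes passed, 2 had an unadjusted p under 0.05, 5 were above 0 and the median was −0.02 (0.01 after median centring and 0.09 with 16 added to the signal). Besides scpl44, scpl25 read 102 and 49.7 in water and 249 and 110 with gibberellin (pairs 1.29 and 1.14), and scpl20 had pairs of 1.40 and 0.51 but stood at −0.12 without gibberellin A. All 3 passed at 9 h, at 5.80, 2.81 and 4.03. Of 9 kept endopeptidases CP1 alone passed. The subtilase SBT1.3 had pairs of 0.49 and 0.74 and passed at 9 h (2.13). The vacuolar processing enzyme GAMMA-VPE had pairs of −0.63 and −0.29, and the bright BETA-VPE (1721 and 2564 in water, 1444 and 2395 with gibberellin) differed by less than its arrays did.

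Chaperones and co-chaperones were above 0 in 11 of 14 genes, with a median of 0.27, and 0 passed (3 at an unadjusted p under 0.05). Their median A pair was 0.08 and their median B pair 0.43, so the shift lay mostly in the B pair. Hop2, a co-chaperone that links Hsp70 and Hsp90, read 215 and 213 in water and 320 and 296 with gibberellin (pairs 0.58 and 0.47, adjusted p = 0.576). The plastid chaperonin subunit gene Cpn60beta2 read 734 and 659 against 986 and 920 (pairs 0.43 and 0.48, adjusted p = 0.833). The groups of both genes did not overlap, as in 14.5% of all tested probe sets on the higher side. Both genes passed at 9 h (0.81 and 1.24), as did Hop1 (1.68) and Fes1B (1.70), beside 3.79% of all tested probe sets called higher then.

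Of 7 tubulins 6 were above 0 and 0 passed (1 at an unadjusted p under 0.05). Their median A pair was 0.51 but their median B pair −0.06, so the count above 0 was not shared by both pairs. TUB7, a beta-tubulin of the microtubules, read 109 and 166 in water and 199.9 and 245 with gibberellin (pairs 0.87 and 0.56) and passed at 9 h (1.40). The list named for the citrate cycle also holds genes outside it, namely ACLA-1, ACLA-2, ACLA-3 and ACLB-1 of ATP-citrate lyase, cICDH and ICDH. Of its 11 genes 6 were above 0, with a median of 0.14, and 3 had an unadjusted p under 0.05. These figures therefore do not describe the cycle alone. The median A pair of this list was 0.28 and its median B pair −0.02. SDH2-1, the iron-sulphur subunit of succinate dehydrogenase, read 249.9 and 287 against 371 and 412 (pairs 0.57 and 0.52), and the isocitrate dehydrogenase subunit genes IDH-V and IDH-VI stood at 0.59 and 0.54. All 3 passed at 9 h. ARL (AT2G44080), an ARGOS-like gene of organ growth, read 125 and 122 in water and 304 and 341 with gibberellin, a difference of 1.38 ± 0.35 (adjusted p = 0.322) that passed at 9 h (1.55, adjusted p = 0.0218).

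Of the 6 kept genes of gibberellin perception and signalling, 0 passed at 3 h (2 at an unadjusted p under 0.05), and GID1A and SLY1 were lower in both pairs. GID1A (AT3G05120), a receptor, read 375 and 264 in water and 217 and 175 with gibberellin, with pairs of −0.79 and −0.60. SLY1 (AT4G24210) read 288 and 309 against 159 and 209, with pairs of −0.85 and −0.56. Neither passed at 3 h (adjusted p = 0.587 and 0.437), and both passed at 6 h (−1.33 and −0.99) and 9 h (−2.03 and −1.32). GID1C had pairs of −0.94 and 0.06, GID1B of −0.61 and 0.67, SLY2 of 0.12 and −0.01 and SPY, a regulator of DELLA proteins, of −0.30 and 0.08. Of the 6, 2 were above 0, with a median of −0.27.

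Of the 6175 tested genes with a signal of at least 32 in the higher group and no call at 3 h, both pairs reached 0.5 in 140 higher and 133 lower genes. Among those with a symbol these were 27 higher and 21 lower genes. Besides those above, the higher ones included the carboxylesterase gene CXE18 (pairs 1.16 and 1.14), the histone H2B gene HTB1 (0.69 and 0.50), the glycosyltransferase genes UGT85A2 (0.98 and 0.78) and UGT73B4 (0.73 and 1.32), and PYK10, a beta-glucosidase of the ER bodies (1.10 and 0.98). PYK10 read 152 and 37.3 in water and 325 and 73.8 with gibberellin, so its groups overlapped and its difference was −0.028 without gibberellin A. NAI1, the factor known to be needed for ER bodies, had pairs of 0.63 and 5.17, the second from a water B signal of 0.57. CXE18 and PYK10 passed at 9 h, at 1.43 and 3.42.

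On the lower side, the actin-bundling gene WLIM2b read 679 and 583 in water and 467 and 404 with gibberellin (pairs −0.54 and −0.53), and ATMAP65-6, of a family of microtubule-bundling proteins, had pairs of −0.60 and −0.72. Both passed at 9 h (−0.73 and −1.10). HIS1-3, a linker histone known from drought-stressed leaves, read 252 and 380 in water and 116 and 197 with gibberellin (pairs −1.12 and −0.95, adjusted p = 0.679) and was at −2.69 at 9 h. ALN, the allantoinase of purine breakdown, read 160 and 174 against 110 and 74.1 and passed at 9 h (−1.71). ICL, the isocitrate lyase of the glyoxylate cycle that turns oil into sugar, read 2368 and 8088 in water and 1172 and 4554 with gibberellin. Its pairs of −1.02 and −0.83 have 1 sign, but the A and B arrays differ by more than the treatments, and the difference was 0.03 at 6 h and 0.16 at 9 h. Without gibberellin A it was 0.057. The lipase gene SDP1, which opens the oil stores, had pairs of 0.58 and 0.43 and passed at no time.

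The dehydrin gene LTI30 (AT3G50970), from the desiccation-protective family, had differences of opposite sign at 3 h and 9 h. It read 255 and 305 in water and 444 and 485 with gibberellin, with pairs of 0.80 and 0.67 (adjusted p = 0.949). At 6 h it was at 0.20 (adjusted p = 0.900) and at 9 h at −1.30 (adjusted p = 0.0376), and the change of effect from 3 h did not pass the test. The 4 other LEA genes lay between −0.40 and 0.03. Autophagy genes, which recycle cell contents, were below 0 in 8 of 8, with a median of −0.18, and 0 passed (1 at an unadjusted p under 0.05). Their median A pair was −0.15 and their median B pair −0.46. In ATG8C the pairs were −0.51 and −1.03 (adjusted p = 0.883). Of 68 plastid-encoded genes 23 were above 0, with a median of −0.12, a median A pair of −0.04 and a median B pair of −0.24. Of 8 nuclear photosynthesis genes 1 was above 0, and 0 had an unadjusted p under 0.05. Their median A pair was 0.11 and their median B pair −0.56, so the pairs differed in sign.

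**Figure D5:**
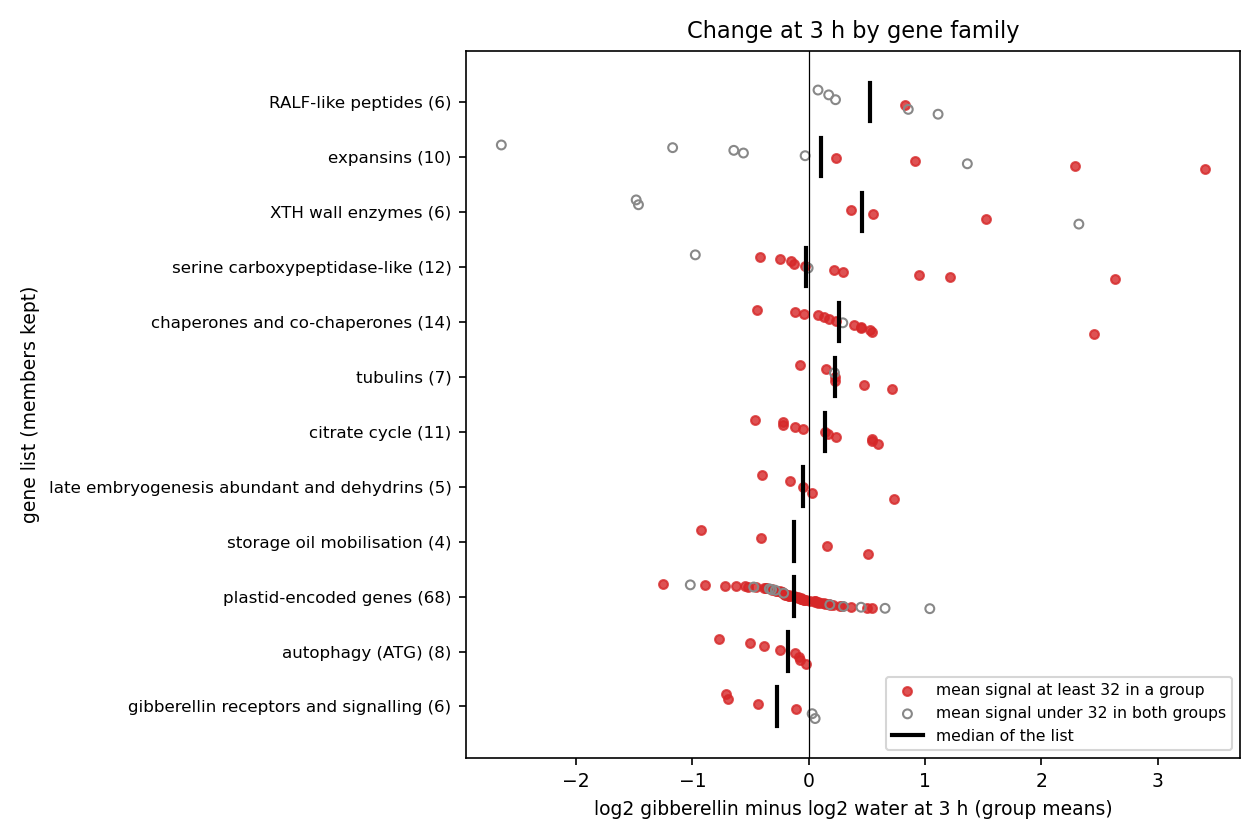
Log2 gibberellin minus log2 water at 3 h (x axis, group means of 2 arrays) for each kept member of 12 gene lists; filled points have a mean signal of at least 32 in a group, open points do not, and the black bar is the list's median. All 6 RALF-like genes lie above 0 and all 8 autophagy genes below it. In the wall lists the filled points lie above 0 while the open points scatter on both sides. EXPA9 is filled through its gibberellin signals alone. The list labelled citrate cycle also holds ATP-citrate lyase and other genes outside that cycle.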

How the data were processed

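Total RNA of seeds, labelled with biotin, had been hybridised to 12 one-colour Affymetrix arrays. Per the submitters' processing notes the signals come from MAS5 (version not given in the sources used here); as deposited they are linear intensity values already scaled to a trimmed mean of 100. They were taken to log2 as deposited, with no offset. Without the 64 controls, the filter asked for a signal above the 40th percentile (16.0) on 2 or more of 12 arrays. Genes were named from the supplied platform annotation, with symbols from the RefSeq table of TAIR10.1: 13513 probe sets name 1 gene (13436 matched the table), 503 several and 8730 none here. A linear model of 6 group means was fitted to all 12 arrays with limma 3.58.1 in R 4.3.3 (moderated variances with an intensity trend, 6 residual degrees of freedom, 2-sided, Benjamini-Hochberg adjustment over 15766 probe sets). Having 2 arrays a group limits the precision, with a median SE of 0.317 for a change. A single gene taken alone could not reach an exact permutation p under 0.333 with 2 against 2 arrays.

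Named are all genes past the test. Also named are the genes not past it whose pairs both reach 1 with a mean signal of at least 32 in the higher group, up to 12 in each direction, ranked by the smaller pair. List members with the largest change and genes of gibberellin perception are given as values. The members and lists were chosen with earlier results of these data known. The family lists by symbol, the naming of symbol genes whose pairs both reach 0.5, the fit of the 8 arrays with a high ceiling and the fit of the 8 later arrays were added after values had been seen. Where a family paragraph names a further member, it was chosen after its values were seen. No promoter or protein sequence was used here.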

Additional observations from a re-analysis of the deposited data

Results flagged for a closer look

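The effect of gibberellin changed between 3 h and 9 h in 2 probe sets that name no single gene here. In the first, the effect at 9 h minus that at 3 h was −2.01 (adjusted p = 0.0275): its signal was 1387 and 1344 in water and 707 and 609.9 with gibberellin at 3 h, a difference of −1.06, which was −3.07 at 9 h. In the second the difference between the effects was −2.78 (adjusted p = 0.00102), with −0.97 at 3 h and −3.75 at 9 h. Both had also passed the test at 3 h.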

How the results depend on the processing

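At 3 h 36 probe sets passed the test. The count stayed within 1.5 times of that with median centring (28), quantile normalization (35), 16 added to the signal (41), no filter (34), a stricter filter (40) and robust variances (38). With a block for the signal ceiling it was 66; it was 14 among probe sets of 1 gene alone, 6 without the intensity trend, 6 from the 8 arrays with a high ceiling (chosen after seeing the data, with 1 array a group at 3 h and the spread taken from the later groups) and 1 from the 4 arrays at 3 h, where fewer arrays estimate the spread; for the other settings the cause was not tested. Leaving out 1 array gave 15 (without water B at 3 h) to 31 (without water A at 3 h) calls at 3 h, 0 to 2 for the change of effect from 3 h to 6 h and 1 to 46 (without gibberellin A at 3 h) for that from 3 h to 9 h. That last count was 2 in all arrays, 40 with the ceiling block, 4 with 16 added, 1 with quantile normalization, 1 without the trend and 0 among probe sets of 1 gene. Both pairs reached 1 in 307 probe sets, in 61 with 16 added, 87 with the stricter filter and 1326 with no filter, most of the additions being dim by construction.

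The array letters are not known to pair the arrays: deviations of the same letter correlated at 0.28 between water and gibberellin at 3 h and at 0.08 to 0.28 over the 15 pairs of groups, with only 2 letters. With the letter as a replicate block 110 probe sets passed at 3 h, the 36 among them, 1 for the change to 6 h and 163 for that to 9 h. It ended none of the 15 named calls and brought 20 of the weaker named genes past the threshold, among them 13 of the 18 with both pairs at 1 or more (EXPA9 at an adjusted p of 0.00836). The weaker genes were chosen by the agreement of both pairs, which favours passing with such a block.

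Directions turned only for genes with small or uneven differences, none of them called. GID1C (0.063), SLY2 (−0.012) and SPY (0.081) had the other sign in the high-ceiling arrays, where the value is the B pair itself, and GID1B (−0.065) with 16 added. With 1 array left out, SLY2 ranged from −0.028 to 0.14, GID1B from −1.03 to 1.09, OTP70 from −0.13 to 1.39, scpl20 from −0.12 to 2.03, ICL from −1.90 to 0.057, PYK10 from −0.028 to 2.11 and SPY from −0.31 to 0.090. Low signal limits the rest: under 32, the A and B pairs of a gene hardly correlated.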
